A study of Homo sapiens with 12 samples.

Results

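The nuclear pore complex genes are the 30 genes of a list of nucleoporin symbols, and all 30 were found among the 19907 genes with a value in the files. The list was drawn up with the near absence of one member, NUP210, in one genotype already known, so every difference between genotypes is given here as a description without a test. The 12 RNA-seq libraries came from MDA-MB-231, a triple-negative breast cancer line of human origin. The groups were S134A-GR cells with dexamethasone (Dex), S134A-GR cells with vehicle, WT-GR cells with Dex and WT-GR cells with vehicle, with 3 libraries in each. S134A-GR cells express a glucocorticoid receptor with alanine in place of a serine, and WT-GR cells express the wild-type receptor. Both lines were serum-starved for 18 h in IMEM with 1% DCC before they received 1 µM Dex, a synthetic glucocorticoid, or vehicle for 6 h. The labels do not say how the lines were made, whether either is 1 clone, or whether a group's libraries were made from separate cultures. The p-values therefore reflect the spread between libraries, which may be technical.

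Nuclear pores are the channels through the nuclear envelope by which proteins enter the nucleus and RNA leaves it. Each pore is built from nucleoporins: scaffold proteins of the Y complex and the inner ring, membrane-spanning proteins that anchor the scaffold, proteins with phenylalanine-glycine repeats that line the central channel, and filaments on the cytoplasmic side and the basket on the nuclear side. The glucocorticoid receptor itself passes through these pores when a hormone binds it.

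Values are normalized read counts per gene, which the authors had divided by a size factor of each library. The reads recovered from them came to between 56.36 and 100.6 M per library (M, mega). WT-GR Dex replicates 2 and 3 stood apart, with 1 read for 193 and 210 genes, where the other libraries had 352 to 409 such genes. NR3C1, which encodes the receptor, ran from 7469 to 8354 in S134A-GR Dex, 8516 to 8971 in S134A-GR vehicle, 8707 to 10247 in WT-GR Dex and 10444 to 12729 in WT-GR vehicle, and gene totals cannot show the replaced codon. Of the markers of this mesenchymal line, VIM was at least 366469 in every library and overlapped between genotypes. CAV1 was lower in S134A-GR cells without overlap, at -0.70 log2 in vehicle and -0.59 in Dex, as was MSN, at -0.23 and -0.24. CD44 was lower without overlap in vehicle only and AXL in Dex only, while SPARC was higher without overlap in vehicle only. Of the luminal markers ESR1 was at most 5.655 and CDH1 at most 17.07, but KRT19 averaged 705.9 in S134A-GR Dex, 836.8 in S134A-GR vehicle, 3099 in WT-GR Dex and 4158 in WT-GR vehicle. The 6 luminal markers with values, KRT19 among them, summed to 2672 to 2888 in the S134A-GR libraries and 4355 to 5727 in the WT-GR libraries. GATA3, FOXA1 and ERBB3 went against this sum. They were higher in S134A-GR cells, by 0.43, 0.34 and 0.91 log2 in vehicle and by 0.38, 0.31 and 0.62 in Dex. Only FOXA1 in Dex overlapped between genotypes. The blood marker PTPRC was at most 18.31, and CD14 averaged 4.415 in S134A-GR Dex, 4.622 in S134A-GR vehicle, 33.99 in WT-GR Dex and 30.42 in WT-GR vehicle. The part of these markers in the differences between genotypes was not tested. Gene names in the Dex files were shifted against the values for all 30 members and were repaired by line order, so every Dex value below rests on that repair.

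Promoter sequences of 300 bases from RefSeq (GRCh38.p14), each from upstream of a start site to just past it, were available for 28 of the 30 members, as 36 promoters; NUP43 and AHCTF1 had no entry. The 3 shown are those of NUP210, nearly absent in S134A-GR cells, and of NUPL1 and NUP54, the members with the largest Dex responses in WT-GR cells. Each is written 5′ to 3′ on the strand of its gene, and capitals mark the GC box GGGCGG or its reverse complement. NUP210 is on the minus strand at chr3:13420273-13420572, NUPL1 on the plus strand at chr13:25301375-25301674 and NUP54 on the minus strand at chr4:76148348-76148647.
NUP210: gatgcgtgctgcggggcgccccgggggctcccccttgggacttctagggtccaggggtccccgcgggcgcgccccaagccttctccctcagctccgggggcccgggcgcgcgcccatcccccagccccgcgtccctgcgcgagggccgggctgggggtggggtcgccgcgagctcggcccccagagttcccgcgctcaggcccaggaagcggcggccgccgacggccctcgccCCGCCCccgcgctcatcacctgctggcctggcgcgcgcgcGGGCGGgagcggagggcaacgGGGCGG
NUPL1: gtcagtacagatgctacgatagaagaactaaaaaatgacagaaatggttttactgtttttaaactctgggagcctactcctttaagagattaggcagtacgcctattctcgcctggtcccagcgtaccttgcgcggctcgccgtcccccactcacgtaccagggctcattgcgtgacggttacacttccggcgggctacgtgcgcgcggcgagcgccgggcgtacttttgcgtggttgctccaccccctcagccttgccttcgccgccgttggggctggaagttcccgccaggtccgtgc
NUP54: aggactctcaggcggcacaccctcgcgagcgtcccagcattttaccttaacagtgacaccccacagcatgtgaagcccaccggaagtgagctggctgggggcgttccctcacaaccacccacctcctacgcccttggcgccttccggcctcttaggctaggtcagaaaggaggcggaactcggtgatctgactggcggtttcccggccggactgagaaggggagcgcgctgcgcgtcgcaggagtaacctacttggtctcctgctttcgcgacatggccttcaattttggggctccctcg

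The NUP210 promoter held 3 GC boxes, 42 CpG dinucleotides and 81.3% G or C. The NUPL1 promoter had 27 CpG and 58% G or C, the NUP54 promoter 22 CpG and 62%, and neither held a GC box. Over the members' promoters the medians were 63.7% G or C and 27 CpG, against 58.7% and 14 CpG over all 35116 promoters of the same length. Both strands were searched for each motif. A GC box was found in 17 of the 36 members' promoters and in 45% of all promoters. The full palindrome of glucocorticoid receptor sites, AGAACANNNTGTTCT, was in 0 of the 36 and in 0.00285% of all promoters. Its repeated element AGAACA, which any full palindrome also contains, was in 2 members' promoters, NUP153 and NUP93, and in 14.8% of all. TATAAA was in 1 of the 36, again a promoter of NUP93, against 11.5% of all, and the NRF1 site GCGCATGCGC was in 3, those of NUP107, NUP50 and NUP62, against 1.24%. A match of letters is not a bound site.

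NUP210 encodes a membrane protein of the pore whose bulk lies between the membranes of the nuclear envelope. It spans chr3:13316235-13420309 on the minus strand in the GENCODE v29 annotation of GRCh38. In vehicle its normalized counts were 19.79, 5.069 and 13.36 in S134A-GR cells, against 2376, 2228 and 2097 in WT-GR cells. In Dex they were 12.68, 7.001 and 16.95 in S134A-GR cells, against 2284, 1978 and 2226 in WT-GR cells. The S134A-GR libraries held 21, 5 and 15 reads of the gene in vehicle and 12, 8 and 18 in Dex, where the shallowest WT-GR libraries held 1458 in vehicle and 1338 in Dex. No value of the genotypes came near the other. The S134A-GR mean was 0.57% of the WT-GR mean in vehicle and 0.565% in Dex. On the log2(value + 1) scale the difference between genotypes, S134A-GR minus WT-GR, was -7.52 in vehicle and -7.43 in Dex. NUP210 stood at rank 7 from the lowest of the 15957 genes tested in vehicle and at rank 8 in Dex, and 229 and 220 genes lay below -3 on this scale. In bulk RNA, fewer cells with a transcript and less of it per cell cannot be told apart.

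The nearest measured gene on each side of NUP210 did not share its low values in S134A-GR cells. HDAC11, a histone deacetylase gene and the nearest above it, averaged 2628 ± 92.3 in S134A-GR vehicle, against 2311 ± 80.6 in WT-GR vehicle (SD, n = 3 each). IQSEC1, the nearest below it, averaged 6777 ± 310 in S134A-GR vehicle, against 7956 ± 660 in WT-GR vehicle. Over the 10 nearest genes the log2 differences ran from -0.52 to 0.19 in vehicle and from -0.89 to 0.05 in Dex. The -0.89 was that of FBLN2, whose group means were 14.36 to 31.35. Of the 20 nearest tested genes 16 were below 0 in each treatment, with medians of -0.24 in vehicle and -0.13 in Dex. The paralog NUP210L was at most 9.627 in any library.

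Of the other 2 members of the transmembrane ring, NDC1, which is needed to insert pores into the envelope, averaged 6540 ± 208 in S134A-GR vehicle, against 8505 ± 738 in WT-GR vehicle (SD, n = 3 each), and 6538 ± 569 in S134A-GR Dex, against 7477 ± 766 in WT-GR Dex. Its groups did not overlap in vehicle and overlapped in Dex. POM121 averaged 5924 ± 206 in S134A-GR vehicle, against 6425 ± 449 in WT-GR vehicle, with overlapping groups, and was lower without overlap in Dex. Reads of POM121 and of its near-identical copy POM121C, which ran from 6393 to 8052, could be split between them by the counting.

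Over the 30 members the genotypes did not overlap for 18 in vehicle, 7 higher and 11 lower in S134A-GR cells. Over all genes tested, 31.5% were higher and 32.7% lower without overlap in vehicle. In Dex 7 members were higher and 9 lower, against 25.3% and 27.1% of all genes. Without WT-GR vehicle replicate 3, 17 members were lower in vehicle, where fewer libraries overlap less often. With scaling by library size only 4 were lower in Dex, where the median of all genes moved to 0.13 from 0.01. The share of all genes without overlap is not given for either setting. Since the members were chosen with this contrast in view, nothing is read from these counts. The members' median difference was -0.10 in vehicle and -0.02 in Dex, against 0.01 over all genes in both. Beside NUP210, the 5 members with the largest mean differences were NUPL1, NUP214, NUP188, NUP88 and NUP50.

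**Figure D1:**
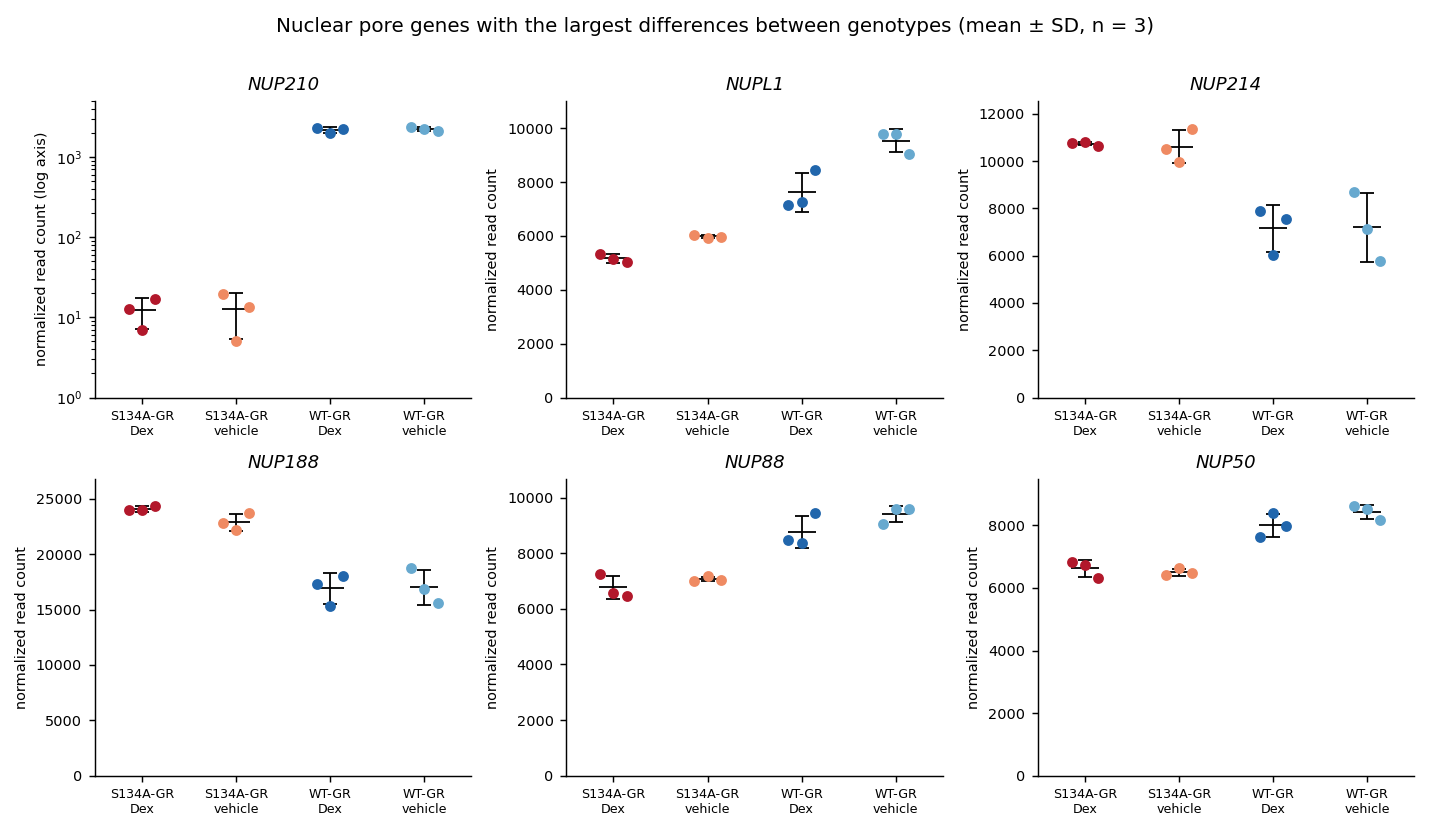
Normalized read counts of NUP210 (log axis) and of the 5 other members with the largest genotype differences (linear axes from 0), by group. Points are libraries, bars the mean and SD of 3. NUP210 sits between 5.069 and 19.79 in the S134A-GR libraries and at 1978 or more in the WT-GR libraries, and in the other 5 genes the genotypes do not overlap within a treatment.

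NUPL1, now named NUP58, encodes a repeat protein of the central channel. Its vehicle values were 6030, 5937 and 5973 in S134A-GR cells, against 9776, 9782 and 9061 in WT-GR cells. In Dex they were 5339, 5133 and 5034 in S134A-GR cells, against 7141, 7268 and 8446 in WT-GR cells. All S134A-GR libraries lay below all WT-GR libraries of the same treatment, and the log2 differences were -0.67 (vehicle) and -0.56 (Dex). The other channel proteins differed less. NUP62 averaged 12172 ± 445 in S134A-GR vehicle, against 12206 ± 274 in WT-GR vehicle (SD, n = 3 each). NUP54 averaged 4309 ± 81.5 in S134A-GR vehicle, against 4583 ± 224 in WT-GR vehicle, and both genes overlapped between genotypes in vehicle. In Dex NUP54 was higher in S134A-GR cells without overlap, by 0.18 log2, and NUP62 overlapped.

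NUP214 and NUP88 bind each other on the cytoplasmic side of the pore, and NUP214 also binds the export receptor XPO1. NUP214 had 10529, 9950 and 11342 in S134A-GR vehicle, against 8701, 7108 and 5768 in WT-GR vehicle. It had 10755, 10813 and 10658 in S134A-GR Dex, against 7875, 6029 and 7571 in WT-GR Dex. The S134A-GR values were all higher, by 0.58 log2 in vehicle and 0.60 in Dex, although the WT-GR vehicle libraries were widely spread. NUP88 went the other way. It had 7009, 7168 and 7037 in S134A-GR vehicle, against 9064, 9581 and 9588 in WT-GR vehicle. It had 7249, 6574 and 6479 in S134A-GR Dex, against 8481, 8369 and 9443 in WT-GR Dex. Its differences were -0.41 in vehicle and -0.37 in Dex, without overlap. Exons of NUP88 overlap those of RPAIN on the opposite strand, as do exons of NUP62 with ATF5, NUP188 with SH3GLB2 and TPR with PRG4. The strand setting of the counting is not given in the sources used here. On the same strand, where such a setting would not separate reads, exons of NUP62 overlap IL4I1 and those of NUP188 AL672142.1. The same holds for AHCTF1 with KIF28P, NUP133 with AL160004.1 and TPR with RNU6-1240P.

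Among the rest of the cytoplasmic side, NUPL2, now named NUP42, averaged 989.4 ± 40.9 in S134A-GR vehicle, against 906.5 ± 36.1 in WT-GR vehicle, with no overlap in either treatment. RAE1, an mRNA export factor that binds NUP98, averaged 8743 ± 269 in S134A-GR vehicle, against 7985 ± 94.5 in WT-GR vehicle. AAAS, the gene mutated in triple A syndrome, averaged 4845 ± 174 in S134A-GR vehicle, against 4347 ± 247 in WT-GR vehicle. RAE1 and AAAS were higher without overlap in vehicle and overlapped in Dex. NUP98 and RANBP2, the docking site of the Ran GTPase-activating protein, overlapped between genotypes in both treatments. RANBP2 shares sequence with the RGPD genes, of which RGPD3 and RGPD4 averaged 28.36 and 32.75 in S134A-GR Dex, so its counts are uncertain in that respect.

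NUP188 is a scaffold protein of the inner ring. It had 22785, 22159 and 23704 in S134A-GR vehicle, against 18709, 16809 and 15567 in WT-GR vehicle. It had 23949, 23938 and 24350 in S134A-GR Dex, against 17308, 15344 and 18062 in WT-GR Dex. Each S134A-GR library exceeded each WT-GR library, with differences of 0.43 in vehicle and 0.51 in Dex. NUP93, another inner ring scaffold protein, was higher in S134A-GR cells without overlap in both treatments, by 0.21 log2 in vehicle and 0.18 in Dex. NUP35, which binds the membrane, was lower without overlap in both, at -0.37 in vehicle and -0.25 in Dex. NUP205, the close relative of NUP188, and NUP155 overlapped between genotypes.

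In the nuclear basket NUP50, which helps release import cargo from importin alpha, had 6417, 6621 and 6467 in S134A-GR vehicle, against 8611, 8510 and 8165 in WT-GR vehicle. It had 6817, 6733 and 6326 in S134A-GR Dex, against 7636, 8383 and 7994 in WT-GR Dex. The genotypes did not overlap, and the differences were -0.37 in vehicle and -0.27 in Dex. NUP153, which anchors the basket, was also lower without overlap in both treatments, at -0.25 in vehicle and -0.11 in Dex. TPR, its main filament, overlapped, at 23192 ± 938 in S134A-GR vehicle, against 23397 ± 3763 in WT-GR vehicle (SD, n = 3 each). In the Y complex, which forms the outer rings of the scaffold, group means in vehicle ran from 3868 for NUP37 to 14985 for SEC13 in S134A-GR cells, against 3840 and 15560 for the same genes in WT-GR cells. NUP107, NUP160, NUP43 and SEH1L were lower and NUP85 higher in S134A-GR vehicle without overlap. In Dex NUP160 and SEC13 were lower and NUP85 and AHCTF1 higher without overlap, and NUP133 and NUP37 overlapped in both treatments. The differences ran from -0.30 for NUP43 to 0.12 for NUP85 in vehicle. In Dex they ran from -0.18 for SEC13, which also belongs to a coat of transport vesicles, to 0.31 for AHCTF1.

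The difference between genotypes of each member was set beside that of the genes around it. This comparison was added after the members' values had been seen. The 20 tested genes nearest to NUPL1 on chromosome 13 had a median difference of -0.66 in vehicle and -0.45 in Dex, and 18 of them were below 0 in vehicle, close to its own -0.67 and -0.56. For NUP188 on chromosome 9 the flanking median was 0.45 in vehicle, against its own 0.43, and 0.25 in Dex, against 0.51. NUP214 on the same chromosome lay further out than its surroundings, whose medians were 0.26 in vehicle and 0.23 in Dex. For NUP35 on chromosome 2 they were -0.51 in vehicle and -0.27 in Dex. SEH1L on chromosome 18 went the opposite way, at -0.13 in vehicle with a flanking median of 0.24 and 2 of 20 flanking genes below 0. NUP88 and NUP50 differed from their surroundings, with flanking medians in vehicle of 0.09 for NUP88 and 0.03 for NUP50. Over all their genes, chromosome 13 had a median of -0.52 in vehicle and -0.40 in Dex, and chromosome 9 of 0.28 in both. Across the 29 members, Spearman's rho between a member's difference and its flanking median was 0.44 in vehicle and 0.56 in Dex, as a description, since the points come from the same libraries. The part of position in these differences was not tested.

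**Figure D2:**
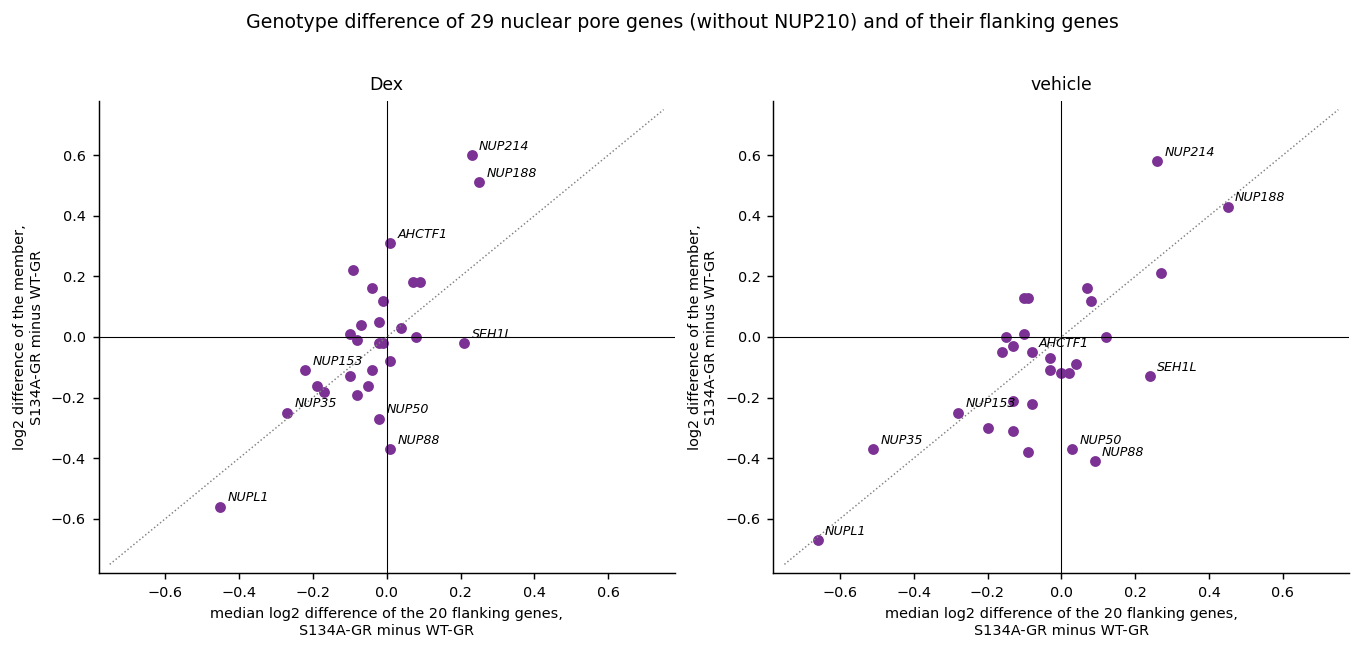
Each point is 1 of 29 members, in Dex (left) and vehicle (right). The horizontal axis is the median log2 difference, S134A-GR minus WT-GR, of its 20 nearest tested genes, the vertical axis the member's own difference, and the dotted line marks equality. NUPL1 lies at -0.66 and -0.67 in vehicle and NUP188 at 0.45 and 0.43, while NUP88 and NUP50 lie below flanking medians close to 0.

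The Dex response was tested in each genotype in 1 limma fit over all 15957 genes, with a Benjamini-Hochberg adjusted threshold of 0.05. All 30 members passed the filter on low values. In S134A-GR cells 1 member rose, AHCTF1, and 2 fell, NUPL1 and RAE1, while 7.99% of all genes rose and 7.76% fell. In WT-GR cells 1 member rose, NUP93, and 3 fell, NUPL1, NUP54 and NUP155, while 13.9% of all genes rose and 14% fell. The members' shares were 3.33% and 6.67% in S134A-GR cells and 3.33% and 10% in WT-GR cells, all below or near the background. With scaling by library size only, 32.4% of the calls over all genes in WT-GR cells were higher, against 49.7%, and 0 members rose and 7 fell. The members' median response was 0.01 log2 in S134A-GR cells and -0.07 in WT-GR cells, against -0.02 over all genes in both. Without WT-GR Dex replicate 3, 9 members fell in WT-GR cells, where 6088 of all 15883 genes were called, 3085 of them higher. The fit without both WT-GR Dex replicates 2 and 3 leaves 1 library assumed to vary like the others. In it NUP107, NUP43 and NDC1 were at -0.29, -0.28 and -0.31 log2 and SEC13 at 0.22.

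**Figure D3:**
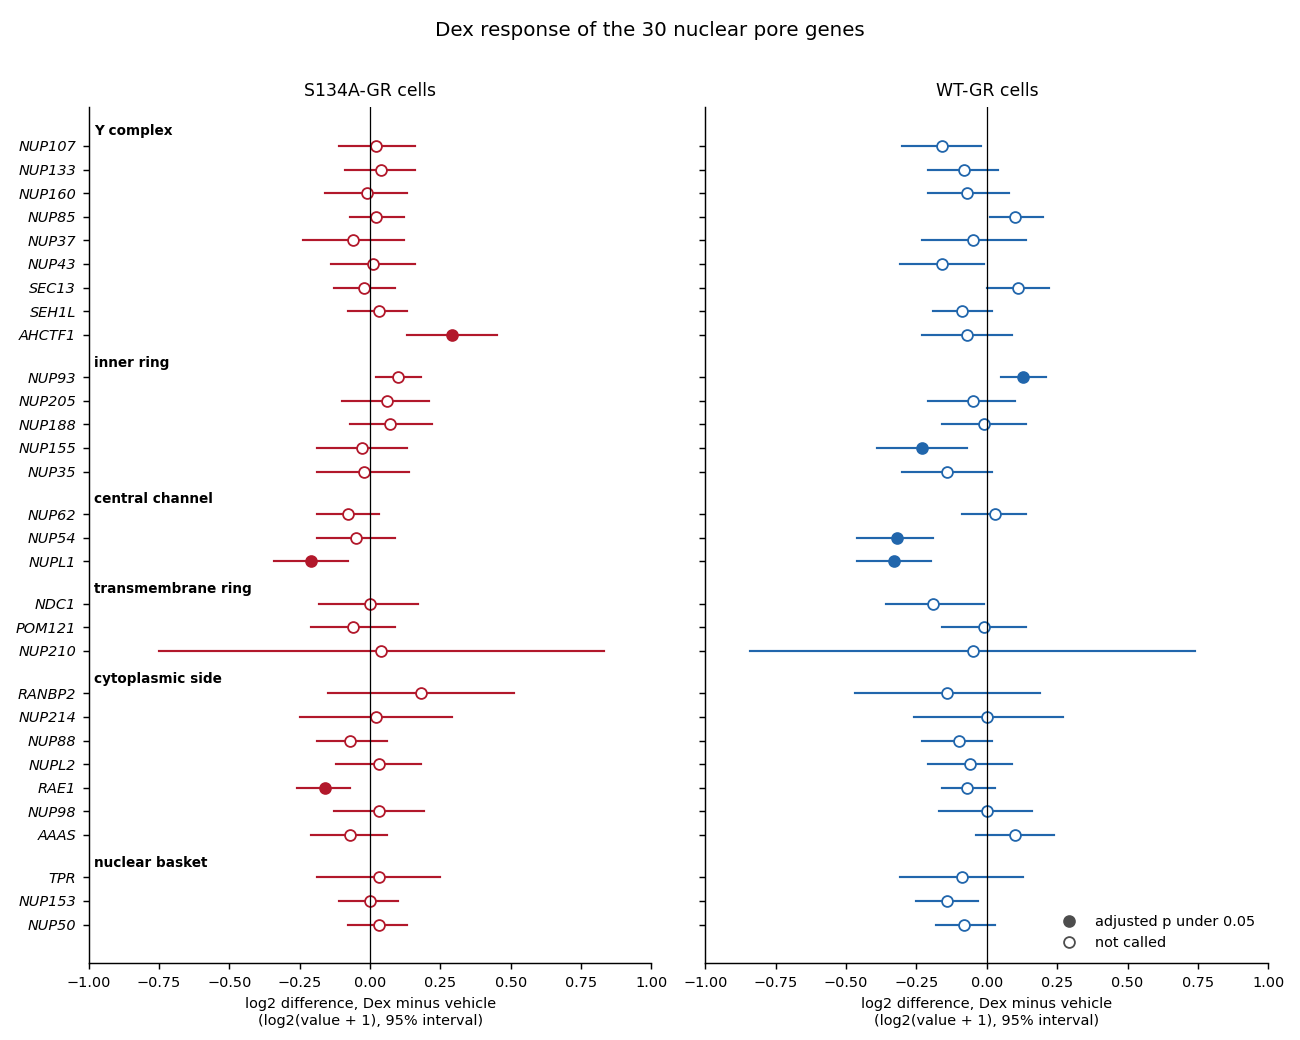
Log2 difference, Dex minus vehicle, with its 95% interval from limma for each member, in S134A-GR cells (left) and WT-GR cells (right), grouped by subcomplex. Filled points passed the adjusted threshold. The filled points are AHCTF1, NUPL1 and RAE1 in S134A-GR cells and NUP93, NUP155, NUP54 and NUPL1 in WT-GR cells, and NUP210 has the widest interval in both panels.

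Of the 3 central channel genes, NUPL1 fell in both genotypes, NUP54 fell in WT-GR cells, and NUP62 passed in neither. In WT-GR cells NUPL1 had 7141, 7268 and 8446 in Dex, against 9776, 9782 and 9061 in vehicle. Every Dex library was below every vehicle library, and NUPL1 fell by 20.3% (log2 -0.33 ± 0.06 SE, limma adjusted p = 0.00134). In S134A-GR cells NUPL1 had 5339, 5133 and 5034 in Dex, against 6030, 5937 and 5973 in vehicle. The groups did not overlap there either, and it fell by 13.6% (log2 -0.21 ± 0.06, adjusted p = 0.0288). The responses of the genotypes differed by 0.12 ± 0.09 log2, with a 95% interval of -0.07 to 0.30. The WT-GR call held in all 22 alternatives that keep the repaired names. The S134A-GR call was lost without any 1 of the 3 vehicle libraries or of Dex replicates 2 and 3, and with the replicate block (adjusted p = 0.062), over a range of 5.4e-05 to 0.109.

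NUP54, which forms a trimer with NUP62 and NUPL1 in the channel, had 3464, 3804 and 3729 in WT-GR Dex, against 4324, 4714 and 4711 in WT-GR vehicle. The groups stood apart, and NUP54 fell by 20% (log2 -0.32 ± 0.06, adjusted p = 0.00213), again in all 22 alternatives. In S134A-GR cells it had 4577, 3970 and 3970 in Dex, against 4387, 4224 and 4316 in vehicle. Those groups overlapped, and the difference was -0.05 ± 0.06 (adjusted p = 0.721). The difference between the responses, 0.27 ± 0.09, did not pass the threshold (adjusted p = 0.188). NUP62, the third channel protein, was at -0.08 ± 0.05 in S134A-GR cells and 0.03 ± 0.05 in WT-GR cells.

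In the inner ring NUP155 had 6049, 6682 and 7315 in WT-GR Dex, against 8567, 7840 and 7106 in WT-GR vehicle. It fell by 14.8% (log2 -0.23 ± 0.08, adjusted p = 0.0363), although the groups overlapped, and the call was lost without WT-GR vehicle replicates 1 or 2, WT-GR Dex replicates 1 or 2, or S134A-GR vehicle replicate 1, with the replicate block (adjusted p = 0.0645), with edgeR and TMM on the recovered reads (0.0513), and in a fit of only the 2 groups compared (0.109). Its adjusted p over the alternatives ran from 0.00304 to 0.151. NUP93 had 13512, 13367 and 13436 in WT-GR Dex, against 12009, 12045 and 12863 in WT-GR vehicle. All 3 Dex libraries were higher, by 9.26% (log2 0.13 ± 0.04, adjusted p = 0.0234). In S134A-GR cells NUP93 had 15095, 15229 and 15256 in Dex, against 14376, 13933 and 14250 in vehicle. The groups did not overlap, but the difference of 0.10 ± 0.04 did not pass (adjusted p = 0.105). The WT-GR call of NUP93 was lost without WT-GR vehicle replicates 1 or 2, without both WT-GR Dex replicates 2 and 3, and in a fit of only the 2 groups compared (adjusted p = 0.141). With scaling by library size only its difference was 0.06 (adjusted p = 0.281, where the alternatives ranged from 0.00216 to 0.281).

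AHCTF1, also called ELYS, brings the Y complex to chromatin when pores form after mitosis. It had 10517, 9100 and 9220 in S134A-GR Dex, against 7711, 7715 and 8066 in S134A-GR vehicle. Every Dex library was higher, and AHCTF1 rose by 22.5% (log2 0.29 ± 0.08, adjusted p = 0.0157). In WT-GR cells it had 7286, 7576 and 8331 in Dex, against 8903, 8144 and 7333 in vehicle. Those groups overlapped, and the difference was -0.07 ± 0.08 (adjusted p = 0.522). The responses differed by 0.36 ± 0.11 log2, which did not pass the threshold over all genes (adjusted p = 0.151, range 0.0093 to 0.369 over 21 alternatives). The S134A-GR call was lost without S134A-GR vehicle replicates 1 or 2 or S134A-GR Dex replicate 1, with an adjusted p of 0.0761 at most. A pseudogene with a similar sequence, AHCTF1P1, could take some of its reads.

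RAE1 had 8020, 7872 and 7516 in S134A-GR Dex, against 9050, 8553 and 8625 in S134A-GR vehicle. All Dex libraries were lower, and RAE1 fell by 10.8% (log2 -0.16 ± 0.04, adjusted p = 0.0178). In WT-GR cells it had 7452, 7542 and 7906 in Dex, against 7904, 7961 and 8089 in vehicle, and the groups overlapped, with a difference of -0.07 ± 0.04 (adjusted p = 0.279). The S134A-GR call was lost without S134A-GR vehicle replicate 1 or S134A-GR Dex replicate 3, and its adjusted p ran from 0.000191 to 0.104 over the alternatives.

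**Figure D4:**
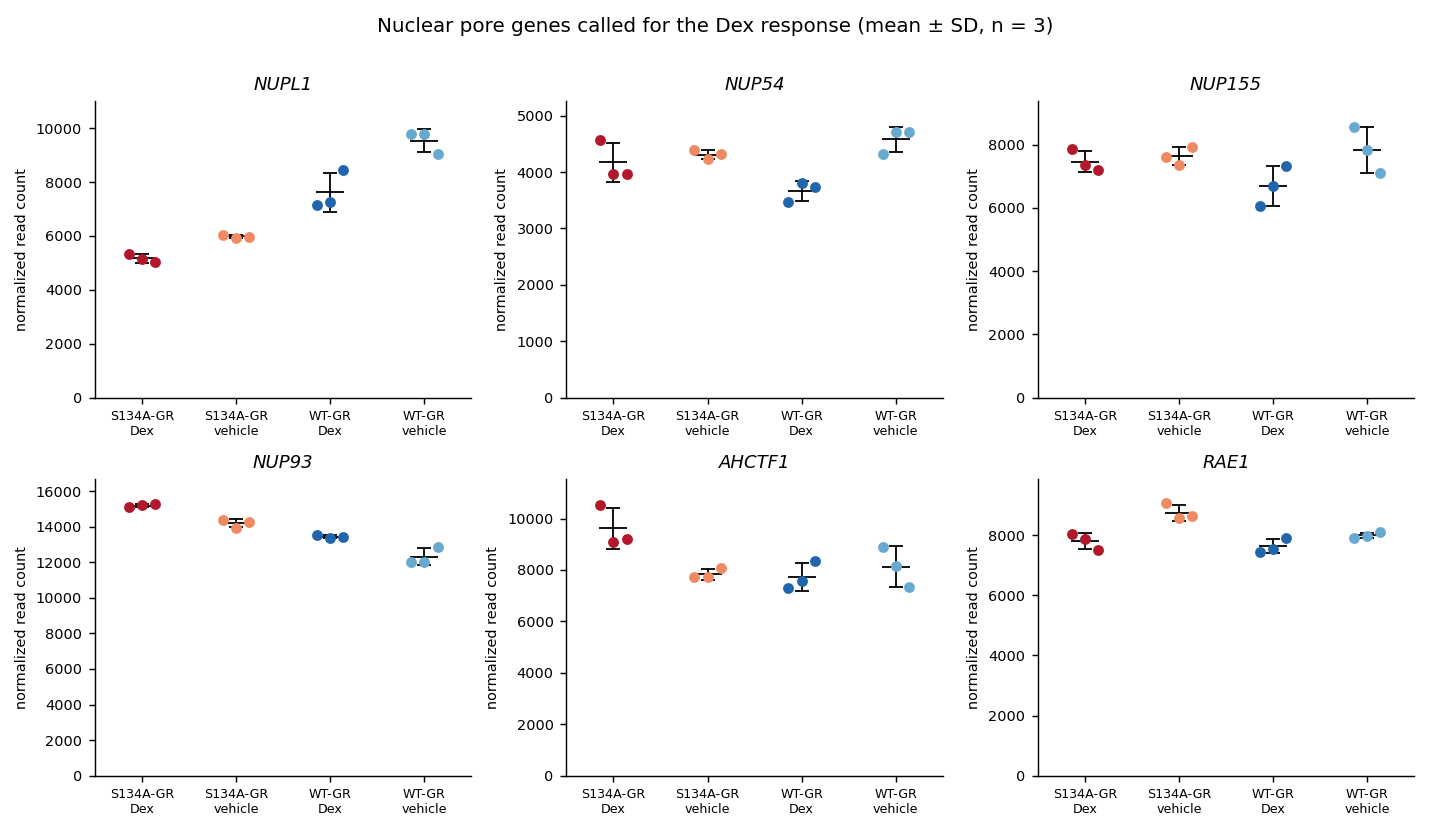
Normalized read counts of the 6 members called for the Dex response in either genotype, by group, on linear axes from 0. Points are libraries, bars the mean and SD of 3. Dex libraries lie below vehicle libraries in both genotypes for NUPL1, and in AHCTF1 the S134A-GR Dex libraries, at 9100 or more, lie above those of the other 3 groups.

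NUP210 had no call for Dex. In S134A-GR cells its difference was 0.04 with a 95% interval of -0.75 to 0.83, and in WT-GR cells -0.05 with an interval of -0.84 to 0.74, and the groups overlapped in both. The S134A-GR libraries with 5 to 21 reads enter the shared estimate of the spread behind both intervals. For 28 of the 30 members in S134A-GR cells and 29 in WT-GR cells the interval lay within 0.5 log2 of 0. The exceptions were NUP210 in both and RANBP2, at -0.15 to 0.51, in S134A-GR cells. NUP153 came closest to the threshold without passing, with 13533, 13724 and 14178 in WT-GR Dex, against 15918, 15187 and 14545 in WT-GR vehicle (log2 -0.14 ± 0.05, adjusted p = 0.0512, chosen after its values were seen).

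No member was called for the difference of Dex responses, where 0.414% of all genes were called. At an unadjusted p under 0.05 there were 2, AHCTF1 and NUP54, and the share of all genes at that level is not given here. On the recovered reads edgeR called 0 members and DESeq2 1, AHCTF1 (log2 0.37, adjusted p = 0.0401). Of all 15957 genes edgeR called 61 and DESeq2 448. Without WT-GR Dex replicate 3, limma called 2 members higher, NUP43 and AHCTF1, and 1623 of all 15883 genes in either direction. Without both WT-GR Dex replicates 2 and 3, which leaves 1 library, the differences were 0.31 for NUP107, 0.29 for NUP43 and 0.45 for AHCTF1. There NUP54 was at 0.35 and SEC13 at -0.24. The members' median difference was 0.10 log2, against -0.00 over all genes, and 22 of the 30 were above 0, against 7976 of all 15957. The members were measured in the same 12 libraries, so their signs are not separate observations. In the lists described below, 14 of 17 import and 6 of 7 export receptors were above 0. So were 1 of 8 genes of the Ran system, 5 of 17 of mRNA export and 10 of 17 of the lamina and nuclear envelope. For 27 members the interval of the difference lay within 0.5 log2 of 0.

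Levels of the members were compared per kilobase of exon, in normalized reads per kb, with exon lengths from GENCODE v29. In WT-GR vehicle SEC13 was highest at 7258 ± 234, followed by NUP88 at 3227 ± 103 and NUP85 at 3070 ± 168 (SD, n = 3 each). NUP210 was the lowest member even there, at 310.5 ± 19.3, below NUPL2 at 406.3 ± 16.2. For 20 of the 29 neighbouring pairs in this order the libraries overlapped, among them NUP88 and NUP85, while members farther apart were not compared. In S134A-GR vehicle NUP210 was at 1.771 ± 1.03 and SEC13 at 6989 ± 188.

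Members differed in how far the replicates of a group lay apart. The coefficient of variation had a median over the members other than NUP210 of 5.43% in S134A-GR Dex, 3.02% in S134A-GR vehicle, 7.54% in WT-GR Dex and 4.94% in WT-GR vehicle. Over all genes tested the medians were higher, at 6.33%, 4.51%, 10.3% and 6.53% in that order. RANBP2, the longest at 11.7 kb, reached 24.6% in WT-GR vehicle, with 12295, 9221 and 7595, and 17.6% in WT-GR Dex, while NUP93, at 9.35 kb, had the lowest value in both Dex groups, 0.567% in S134A-GR Dex and 0.541% in WT-GR Dex. Over these 29 members, Spearman's rho between exon length and the log2 ratio of WT-GR vehicle replicate 1 to replicate 3 was 0.75, against 0.41 over all genes with a length. For the same replicates it was 0.07 in S134A-GR Dex, -0.65 in S134A-GR vehicle and -0.24 in WT-GR Dex. Over all genes with a length it was 0.18, -0.24 and -0.20 in that order. Among the members called for Dex, AHCTF1, NUPL1, NUP93 and NUP155 have 9.2, 9.11, 9.35 and 8.26 kb of exon, RAE1 3.32 kb and NUP54 2.37 kb. Without WT-GR vehicle replicate 1, NUP155 had a difference of -0.16 (adjusted p = 0.151) and NUP93 of 0.11 (adjusted p = 0.0844), within the ranges above. The part of this length pattern in the Dex responses was otherwise not tested.

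**Figure D5:**
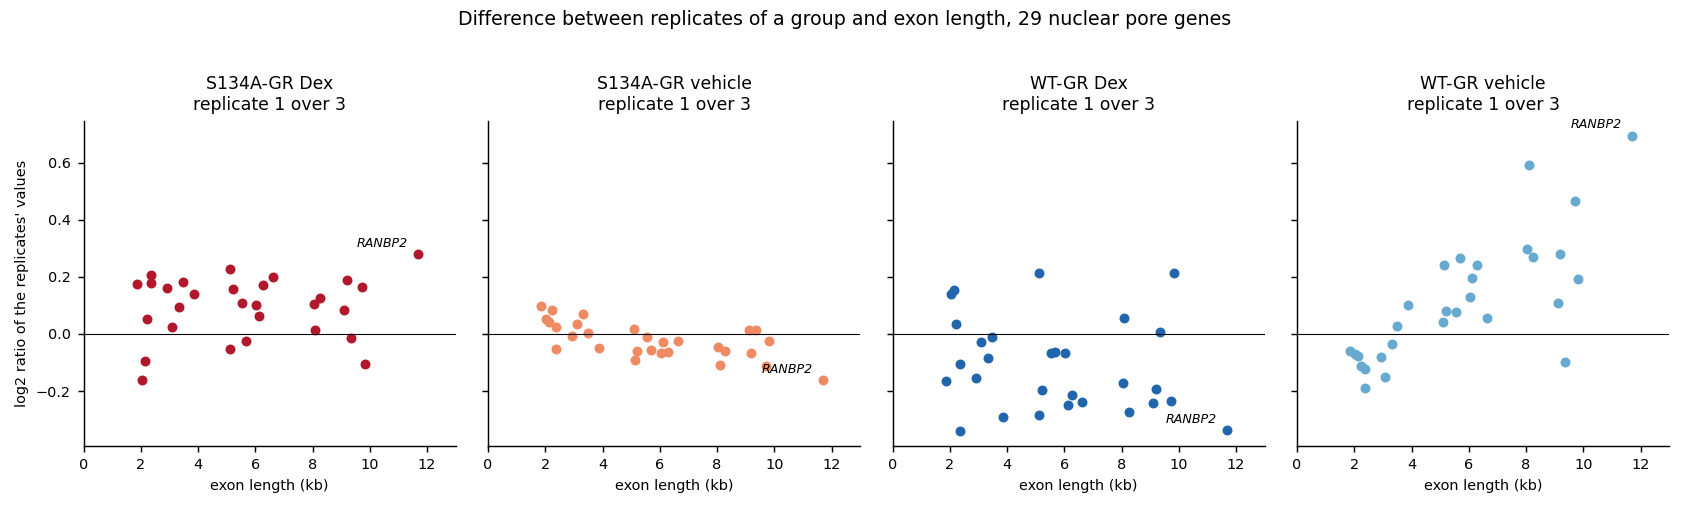
Log2 ratio of replicate 1 to replicate 3 (vertical axis) against exon length in kb (horizontal axis) for 29 members, 1 panel per group. In WT-GR vehicle the ratio is higher for longer genes and highest for RANBP2 at 0.69, while S134A-GR vehicle slopes the other way and S134A-GR Dex shows little slope.

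The transport factors that use the pore and the neighbouring proteins of the envelope were described from lists beside the members. In S134A-GR cells 1 of 17 import receptors rose and 0 fell, and in WT-GR cells 1 rose and 4 fell. In S134A-GR cells limma, edgeR and DESeq2 each called 0 of 7 export receptors, and 1 had an unadjusted limma p under 0.05, while 3 fell in WT-GR cells. In the Ran system of 8 genes, which gives transport its direction, 1 fell in S134A-GR cells, and 1 rose and 1 fell in WT-GR cells. Of 17 mRNA export genes tested the counts were the same in S134A-GR cells (limma 0, unadjusted 1, edgeR and DESeq2 0), and 4 rose and 1 fell in WT-GR cells. Of 17 genes of the lamina and nuclear envelope, 2 rose and 2 fell in S134A-GR cells and 6 rose and 3 fell in WT-GR cells. Over all genes, 7.99% rose and 7.76% fell in S134A-GR cells and 13.9% rose and 14% fell in WT-GR cells. The lists' median responses in WT-GR cells were -0.04, -0.07, 0.07, 0.09 and 0.14 in that order, against -0.02 over all genes. Of the 66 tested genes of these lists limma and edgeR called 0 for the difference of responses and DESeq2 3, where DESeq2 called 448 of all 15957 genes. An unadjusted limma p under 0.05 was found for 17 of the 66. The share of all genes at that unadjusted level is not given here, so nothing is read from the unadjusted counts.

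The largest of these responses was that of KPNA5, an importin alpha, which fell by 0.75 on the log2 scale in WT-GR cells (SE 0.19, adjusted p = 0.0101). TMEM43, also named LUMA, a membrane protein of the envelope, rose by 0.51 in S134A-GR cells (SE 0.04, adjusted p = 3.7e-07) and by 0.48 in WT-GR cells (SE 0.04, adjusted p = 5.86e-07). LBR, the lamin B receptor, fell by 0.26 in S134A-GR cells (SE 0.05, adjusted p = 0.00234) and by 0.41 in WT-GR cells (SE 0.05, adjusted p = 5.44e-05). LEMD2, which binds chromatin at the envelope, rose by 0.33 in WT-GR cells (SE 0.06, adjusted p = 0.00138). In S134A-GR cells TOR1AIP2, a partner of torsin, rose by 0.27 (SE 0.06, adjusted p = 0.00804) and KPNA3, another importin alpha, by 0.24 (SE 0.05, adjusted p = 0.0069).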

How the data were processed

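RNA of 12 MDA-MB-231 libraries was read as 75-base pairs after TruSeq preparation, per the labels' protocols. FastQC 0.11.7, featureCounts of Subread, DESeq2 1.22.2 and the hg38 build are named in the submitters' processing notes; the aligner is not given in the sources used here, and neither is the annotation. The deposited files give a normalized signal per gene. The values themselves show read counts divided by a size factor of the library: 100% gave whole reads within a tolerance of 0.01 reads. Even counts made up 58.2 to 67.5% of counts from 1 to 20, so mates may have been counted singly, and counting precision is not relied on here.

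Each Dex file lists 26485 names for 19907 values, with 8 lines named as in the vehicle files. Matched by line, log2 values of Dex libraries and the vehicle mean correlated at 0.9822 to 0.9860 across genes, and matched by name at -0.0059 to -0.0040. In each Dex library 98 of 98 windows of 200 lines fitted best at the same line. The vehicle names were therefore used by line order.

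The members and all lists were chosen with earlier results of these data known. The test was limma 3.58.1 (R 4.3.3) on log2(value + 1) with its trend option, for the 15957 genes that reached 10 in 3 or more libraries, two-sided, with all 12 libraries in 1 fit. On this scale fold changes of low genes are understated. The fit was run on simulated data with the same mean in every group and changes in WT-GR Dex only. Those data held no differences between genotypes and no length pattern between replicates, and their outcome is not used here. Alternatives were edgeR 4.0.16 and DESeq2 1.42.0 on the recovered reads, other scalings, filters and pseudocounts, library weights, a replicate block, left-out libraries and the names as deposited. Values in every library are given for NUP210, for members called for Dex, and for the 5 others with the largest mean genotype difference; of other pathway genes, at most the 4 largest called responses per comparison are named. Positions and exon lengths (basic transcripts) come from GENCODE v29, which may not be the authors' annotation.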

Additional observations from a re-analysis of the deposited data

How the results depend on the processing

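Of the 6 members called for Dex, NUPL1 and NUP54 in WT-GR cells kept their calls in all 22 alternatives with repaired names, and the other calls were each lost in at least 2. Members called were 1 higher and 3 lower in WT-GR cells, 1 higher and 2 lower in S134A-GR cells, and 0 for the difference of responses. DESeq2 called 1 higher for the difference, and 448 of all 15957 genes in either direction. Scaling by library size only gave 0 higher and 7 lower in WT-GR cells, where 4471 of all 15957 genes were called, 1448 of them higher. A fit of only the 2 groups compared gave 0 higher in WT-GR and 2 higher in S134A-GR cells. Of all 15780 genes it called 1253 higher in WT-GR and 1847 higher in S134A-GR cells. Library weights, whose estimate gave a convergence warning, gave 3 higher and 10 lower in WT-GR cells and 2 higher in S134A-GR cells. For the difference they gave 4 higher and 1 lower. Of all 15957 genes they called 7113 in WT-GR cells, 3483 of them higher, and 5116 in S134A-GR cells, 2438 of them higher. For the difference they called 2854 genes. For the fit without both WT-GR Dex replicates 2 and 3 no count is given, since 1 library is left in that group. Leaving out 1 library gave 0 to 2 higher and 2 to 9 lower in WT-GR cells and 0 to 1 higher and 0 to 2 lower in S134A-GR cells. For the difference it gave 0 to 2 higher. Over all genes the same fits called 2977 to 6088 in WT-GR cells, 1799 to 3044 in S134A-GR cells and 26 to 1623 for the difference. With the names as deposited, which leave values for 26 members, there were 5 higher and 20 lower in WT-GR cells, 5 higher and 21 lower in S134A-GR cells, and 6 higher and 8 lower for the difference, and NUP93 in WT-GR cells and AHCTF1 in S134A-GR cells reversed to -6.03 and -9.67. Under the deposited names 14188 genes were tested. The WT-GR response gave 13578 calls among them (6765 higher), the S134A-GR response 13549 (6777 higher) and the difference 4718 (2381 higher). Most genes were thus called for either response, whether members or not. Between genotypes, leaving out 1 library left 11 to 17 members lower without overlap in vehicle (fewer libraries overlap less often). Scaling by library size only gave 4 lower in Dex, where it moved the median of all genes to 0.13 from 0.01 and that of the members to 0.10 from -0.02. The share of all genes without overlap is not given for these settings, so nothing is read from these counts. The cause of these changes was not tested.

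The main fit did not pair libraries by replicate number. Deviations of same-numbered libraries correlated at -0.0852 to 0.0551 over all pairs of groups. Between vehicle and Dex, the best match was the same number for every S134A-GR replicate and for WT-GR replicates 1 and 2, at 0.00753 to 0.0512. For WT-GR replicate 3 it was not, at -0.0342. Such weak correlations do not settle whether the numbers pair the samples. With the replicate block 1 member was lower in S134A-GR cells, and the calls of NUP155 in WT-GR cells and NUPL1 in S134A-GR cells were lost. Over all genes the block called 2138 in S134A-GR cells, against 2513 in the main fit, and 3786 in WT-GR cells, against 4455. For NUP210, with 5 to 21 reads per S134A-GR library, depth limits what can be said of its Dex response there.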

Other observations

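NUP62CL, a paralog of the channel gene NUP62, was the one other gene of the paralog list with a large difference between genotypes. It had 0 reads in all 6 S134A-GR libraries, where 3 reads would have given 2.63 to 3.17 normalized counts. In WT-GR cells it had 18.78, 6.987 and 12.2 in Dex and 14.66, 24.31 and 30.54 in vehicle.

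Among the transport factors, 6 of 7 export receptors had all S134A-GR vehicle libraries below all WT-GR vehicle libraries, against 32.7% of all genes, with a median difference of -0.27. In Dex 3 of the 7 were lower, against 27.1%, with a median of -0.12. Of 17 import receptors 10 were lower and 2 higher in vehicle, against 32.7% and 31.5% of all genes, with a median of -0.15. In Dex 5 (29.4%) were lower, near the 27.1% of all genes, and 2 higher, against 25.3%, with a median of -0.07. Of 17 mRNA export genes tested, 8 were higher and 5 lower in vehicle, and 7 higher and 4 lower in Dex, with medians of 0.10 and 0.01. Of the 8 genes of the Ran system, 2 were higher and 3 lower in vehicle, and 0 higher and 5 lower in Dex. These differences were not tested, since the genotype contrast guided the choice of the members.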
